A study of Mus musculus with 36 samples.

Results

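The genes Prrx1, Prrx2 and Twist1 encode transcription factors of the limb mesenchyme, and the H3K27ac peaks around them were examined in mouse forelimbs dissected at embryonic day 11.5. Members were the peaks of 18 peak lists that overlapped 3 fixed windows of the mm9 genome build. The windows were chr1:164900000-165500000 for Prrx1, chr2:30600000-30800000 for Prrx2 and chr12:34300000-34900000 for Twist1. They held 1138 of the 732259 peaks in the 18 lists, with 517 peaks in the Prrx1 window, 323 in the Prrx2 window and 298 in the Twist1 window. A window is a stretch around a gene, and no peak in it was assigned to a gene, because no annotation of mm9 was used here.

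Each library came from forelimbs pooled from embryos of the FVB strain, untreated, and immunoprecipitated with an antibody to histone H3 acetylated at lysine 27. There were 4 wild-type (WT) libraries, 4 libraries of embryos null for the enhancer mm1179, and 2 libraries from each of 5 other enhancer-null lines, hs72, hs1262, hs1467, hs1586 and hs1603. The deposited lists carried 4 run tags, used as technical batches. Run tag 1 held WT and mm1179 replicates 1 and 2. Run tag 2 held WT and mm1179 replicates 3 and 4 with both hs72 libraries. Run tag 3 held replicate 1 of hs1262, hs1467, hs1586 and hs1603, and run tag 4 held replicate 2 of the same lines. Run tags 3 and 4 held no WT library, so for those 4 lines genotype and run tag cannot be told apart in a comparison with WT. Nothing in the labels says that replicates came from separate litters, so p-values measure only the spread between these libraries, which may be technical.

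H3K27ac marks the nucleosomes of active enhancers and promoters, and broad, strongly marked stretches often surround genes that define a cell type. Prrx1 and Prrx2 are paired-related homeobox genes, close relatives whose proteins bind TAAT-type sequences and act together in the outgrowth and skeletal patterning of the limb. Twist1 encodes a basic helix-loop-helix factor that binds E-boxes, is present in mesenchyme of the limb bud and the head, and is needed for the limb bud to grow out. In the GRCm38 gene order, Prrx1 lay between Mroh9 and Gorab, Prrx2 between Asb6 and Ptges, and Twist1 between Ferd3l and Hdac9.

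The promoters of the 3 genes are printed because the windows are named after them and because they differ in base composition. Each line holds the 250 bases before the gene's start in RefSeq, build GRCm38.p6, 5′ to 3′ on the gene's strand. The stretches were chr1:163313651-163313900 on the minus strand for Prrx1, chr2:30845117-30845366 on the plus strand for Prrx2 and chr12:33957421-33957670 on the plus strand for Twist1. Their place among the mm9 peaks was not analysed here. Capitals mark the homeodomain-type motif TAATTA, the TATA box TATAAA and the GC box GGGCGG, searched on both strands, so that CCGCCC is GGGCGG on the other strand.
Prrx1: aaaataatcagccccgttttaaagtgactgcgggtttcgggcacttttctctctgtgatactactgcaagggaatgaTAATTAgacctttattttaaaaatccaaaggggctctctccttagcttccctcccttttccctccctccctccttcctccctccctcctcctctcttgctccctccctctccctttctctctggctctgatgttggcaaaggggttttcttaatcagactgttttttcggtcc
Prrx2: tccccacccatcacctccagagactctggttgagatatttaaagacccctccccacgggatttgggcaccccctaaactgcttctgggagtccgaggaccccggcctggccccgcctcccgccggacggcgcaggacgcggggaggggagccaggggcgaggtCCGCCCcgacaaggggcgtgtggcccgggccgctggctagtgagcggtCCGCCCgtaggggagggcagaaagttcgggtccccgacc
Twist1: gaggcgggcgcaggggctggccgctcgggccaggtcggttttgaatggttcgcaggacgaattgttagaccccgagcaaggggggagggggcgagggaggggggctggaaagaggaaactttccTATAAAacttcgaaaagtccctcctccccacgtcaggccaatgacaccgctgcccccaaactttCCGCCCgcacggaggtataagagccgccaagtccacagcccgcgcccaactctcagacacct

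The Prrx1 promoter was 47.6% G and C with 4 CpG dinucleotides, below the median of 52.4% and 6 over 32851 promoters of the same length. The Prrx2 promoter was 70% G and C with 21 CpG, and 90.8% of promoters had a lower G and C content. The Twist1 promoter was 62.4% G and C with 18 CpG. Prrx1 held 1 match to TAATTA, a homeodomain-type sequence that 4.84% of all promoters held. Prrx2 held 2 matches to the GC box GGGCGG, present in 32.7% of promoters, and Twist1 held 1. Twist1 also held 1 TATAAA, which 12.4% of promoters held. None of the 3 held the E-box CANNTG within these 250 bases, while 66.2% of promoters did. None of the printed matches overlapped another.

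No list gives read counts, so the depth of a library is unknown, and a missing peak shows only that no call was made. The lists held 26550 to 58753 peaks and covered 62.6 to 86.0 Mb in run tag 1, 81.4 to 115.3 Mb in run tag 2, 89.6 to 93.6 Mb in run tag 3 and 140.9 to 166.0 Mb in run tag 4. Peak scores are the authors' own values, and here a score was used only as a percentile, the rank of a peak among all peaks of its own list, with 100 the highest. In run tags 1, 2 and 4 a score of 3100, near the top of the lists, was shared by 289 to 3629 peaks of a list, and in run tag 3 by 1 to 59 peaks. It sat at the 96.5th to 96.9th percentile in run tag 4 and at the 98.5th or above in the other libraries, so differences between run tags among percentiles near the top are not read as results. In pooled tissue, fewer cells with the mark and less of the mark per cell cannot be told apart.

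All 3 windows were among the more covered stretches of the limb genome, and the shorter Prrx2 window was the most densely covered. In WT, peaks covered 71.1 ± 21.0 kb of the Prrx1 window, 76.1 ± 2.83 kb of the Prrx2 window and 42.3 ± 9.10 kb of the Twist1 window (SD, n = 4). The Prrx2 window is 200 kb long and the other two are 600 kb long. Of all windows of equal length tiling the genome, 99.8% had less WT coverage than Prrx2, 94.9% less than Prrx1 and 82.7% less than Twist1. The median window of 600 kb held 15.5 kb of WT peaks and the median window of 200 kb held 5.51 kb. These windows were chosen for limb genes, so the ranks describe them and are no test.

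The 3 windows differed in layout as well, as the maps of peaks show. The Prrx2 window was packed, with a median gap of 2.79 kb between neighbouring regions and a largest gap of 10.3 kb. The median gap was nearly the same in the Prrx1 window, at 2.90 kb, but the largest gap there was 36.8 kb. The first Prrx1 region began 158.7 kb from the left edge, and the regions after it lay on both sides of the centre of the window. Twist1 regions stood far apart, with a median gap of 11.3 kb and a largest gap of 46.8 kb. Peaks at or above the 90th percentile of their list made up 26.3% of the Prrx2 peaks (85 of 323), 15.1% of the Twist1 peaks (45 of 298) and 8.51% of the Prrx1 peaks (44 of 517). By the definition of a percentile, about 90% of the peaks of a whole list lie below that mark. The Prrx1 share was thus below that of the lists as a whole, and the Prrx2 and Twist1 shares were above it. These shares also depend on how wide domains are split into peaks.

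**Figure D1:**
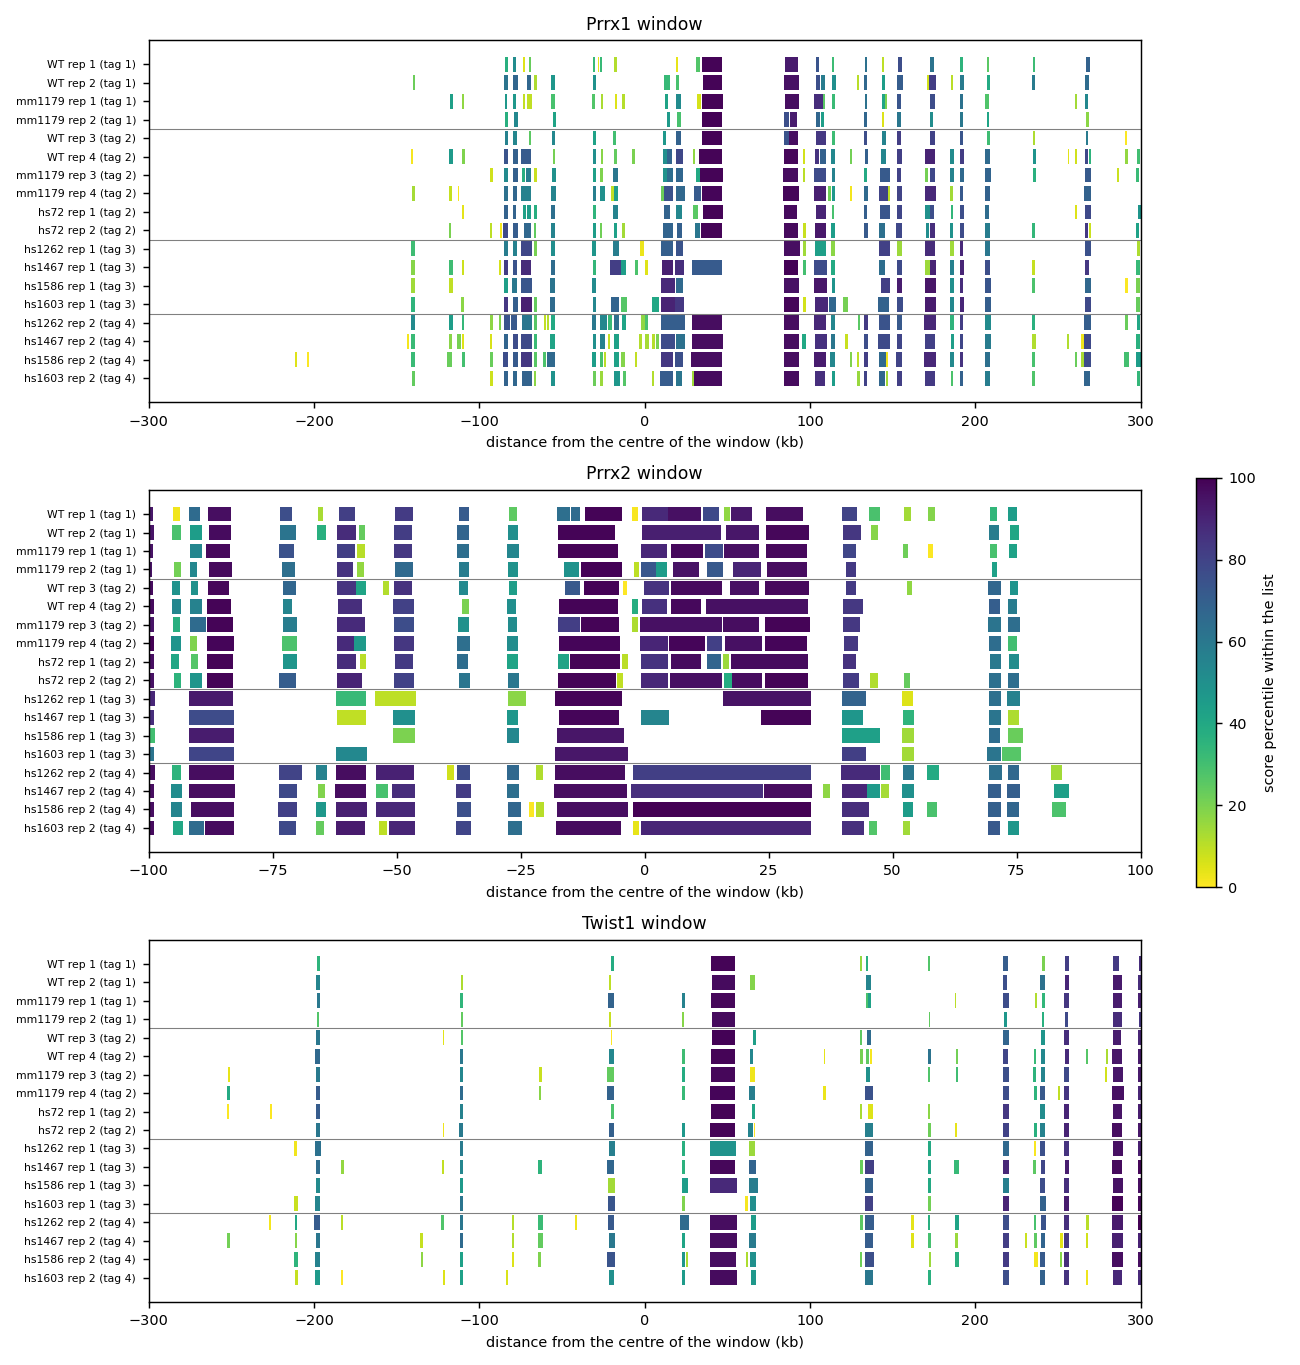
H3K27ac peaks of the 18 libraries in the 3 windows, 1 row per library, ordered by run tag, with the x axis giving the distance in kb from the centre of the window and the colour giving the score percentile within the library's list. Dark blocks mark 1 broad stretch near the centre of the Twist1 window and several in the Prrx1 and Prrx2 windows, and some of these blocks are missing or pale in libraries of run tag 3.

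In the Prrx1 window the covered length varied more between libraries of 1 genotype than between WT and mm1179. WT replicates 1 to 4 had 52.5, 71.4, 60.3 and 100.3 kb covered, and mm1179 replicates 1 to 4 had 72.8, 44.6, 99.3 and 107.8 kb. The groups overlapped, and the mm1179 mean of 81.1 ± 28.5 kb (SD, n = 4) exceeded the WT mean by 10.01 kb (exact two-sided permutation test, p = 0.6, adjusted p = 1 over 3726 windows). Within run tag 1 the mm1179 mean was 58.7 kb against 61.9 kb in WT (exact p = 1), and within run tag 2 it was 103.5 kb against 80.3 kb (exact p = 0.667). With 2 libraries against 2, the smallest exact p is 0.333, and with 4 against 4 it is 0.0286. Over all windows of 600 kb, 0% passed the adjusted test, 0.107% had an unadjusted p under 0.05 with more coverage in mm1179, and 0.134% with less. A window could pass the adjusted test only if most windows reached the smallest p of 0.0286, so the 0% decides nothing.

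The 5 other lines had higher mean covered lengths in the Prrx1 window than WT and mm1179, and 4 of them shared no run tag with WT. The hs72 replicates had 85.4 and 96.9 kb covered, inside the range of the WT libraries of their own run tag. Replicates 1 and 2 had 89.4 and 140.2 kb for hs1262, 114.2 and 138.9 kb for hs1467, 88.1 and 138.2 kb for hs1586, and 107.7 and 107.9 kb for hs1603. Ordered by mean, the genotypes ran WT, mm1179, hs72, hs1603, hs1586, hs1262 and hs1467. Neighbours in this order overlapped, apart from hs72 and hs1603, whose libraries carried different run tags. As a share of all covered bases in the list, the Prrx1 window took 0.0692 to 0.0902% in run tag 1, 0.0741 to 0.102% in run tag 2, 0.0955 to 0.126% in run tag 3 and 0.0766 to 0.0900% in run tag 4. The run tag 4 lists were longer throughout the genome, and the highest shares were those of hs1467 and hs1603 in run tag 3.

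In the Prrx2 window the WT and mm1179 libraries lay close together. Covered lengths were 74.9, 79.1, 72.7 and 77.6 kb in WT replicates 1 to 4 and 74.9, 65.7, 82.3 and 78.9 kb in mm1179 replicates 1 to 4. The means, 76.1 ± 2.83 kb and 75.4 ± 7.16 kb (SD, n = 4), differed by -0.647 kb (exact two-sided permutation test, p = 0.914, adjusted p = 1 over 9510 windows). Within run tag 1 mm1179 had 70.3 kb against 77.0 kb in WT, and within run tag 2 it had 80.6 kb against 75.1 kb (exact p = 0.333 in each). The sign thus differed between the run tags. Over all windows of 200 kb, 0% passed the adjusted test, and 0.326% and 0.294% had an unadjusted p under 0.05 with more and with less coverage in mm1179. As for the 600 kb windows, the smallest exact p was too large for the adjusted test to decide anything.

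In the Prrx2 window the mean covered length was lowest in run tag 3, at 56.1 ± 12.9 kb, and highest in run tag 4, at 106.0 ± 7.03 kb (SD, n = 4). The hs72 replicates had 76.4 and 83.1 kb. Replicates 1 and 2 had 71.4 and 112.2 kb in hs1262, 61.9 and 108.5 kb in hs1467, 45.9 and 107.4 kb in hs1586, and 44.9 and 95.9 kb in hs1603. Every run tag 4 library lay above every run tag 3 library, which was so in 56% of all windows of 200 kb. In the 600 kb windows, where 72.3% of the genome's windows showed this separation, Prrx1 and Twist1 did not, and there hs1467 replicate 1 lay above hs1603 replicate 2. By mean, the genotypes ran hs1603, mm1179, WT, hs1586, hs72, hs1467 and hs1262, and all neighbours in this order overlapped. The Prrx2 window took 0.0501 to 0.0763% of covered bases in run tag 3, against 0.0684 to 0.105% in run tags 1 and 2 and 0.0669 to 0.0699% in run tag 4, so as a share run tag 4 was not the highest. In covered length, run tag 3 overlapped run tags 1 and 2 in all 3 windows. Of all 600 kb windows, 10.6% had run tag 3 wholly below and 2.33% wholly above run tags 1 and 2, and of all 200 kb windows 11.4% and 3.13%.

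In the Twist1 window the covered length was lowest on average in run tag 1, at 37.5 ± 6.07 kb (SD, n = 4). WT replicates 1 to 4 had 33.5, 41.0, 39.8 and 55.1 kb covered, and mm1179 replicates 1 to 4 had 44.2, 31.3, 56.3 and 59.6 kb. The groups overlapped, and the mm1179 mean of 47.9 ± 12.9 kb (SD, n = 4) was 5.52 kb above WT (exact two-sided permutation test, p = 0.486, adjusted p = 1 over 3726 windows). The means were 37.7 kb in mm1179 against 37.3 kb in WT within run tag 1 (exact p = 1), and 58.0 against 47.4 kb within run tag 2 (exact p = 0.333).

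The hs72 replicates had 47.9 and 56.9 kb of the Twist1 window covered. Replicates 1 and 2 had 59.0 and 77.8 kb in hs1262, 64.0 and 73.1 kb in hs1467, 58.7 and 72.4 kb in hs1586, and 43.8 and 58.3 kb in hs1603. By mean, the order was WT, mm1179, hs1603, hs72, hs1586, hs1262 and hs1467, and only the hs72 and hs1586 ranges, 47.9 to 56.9 kb and 58.7 to 72.4 kb, did not overlap among neighbours. The Twist1 window took 0.0442 to 0.0547% of covered bases in run tag 1, 0.0489 to 0.0579% in run tag 2, 0.0488 to 0.0704% in run tag 3 and 0.0414 to 0.0471% in run tag 4. In all 3 windows replicate 2 of each of these 4 lines, from run tag 4, had more covered than replicate 1. The hs72 libraries overlapped the run tag 2 WT libraries in the Twist1 window and in both other windows, while 16.3% of all 600 kb windows and 22.3% of all 200 kb windows did not overlap.

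**Figure D2:**
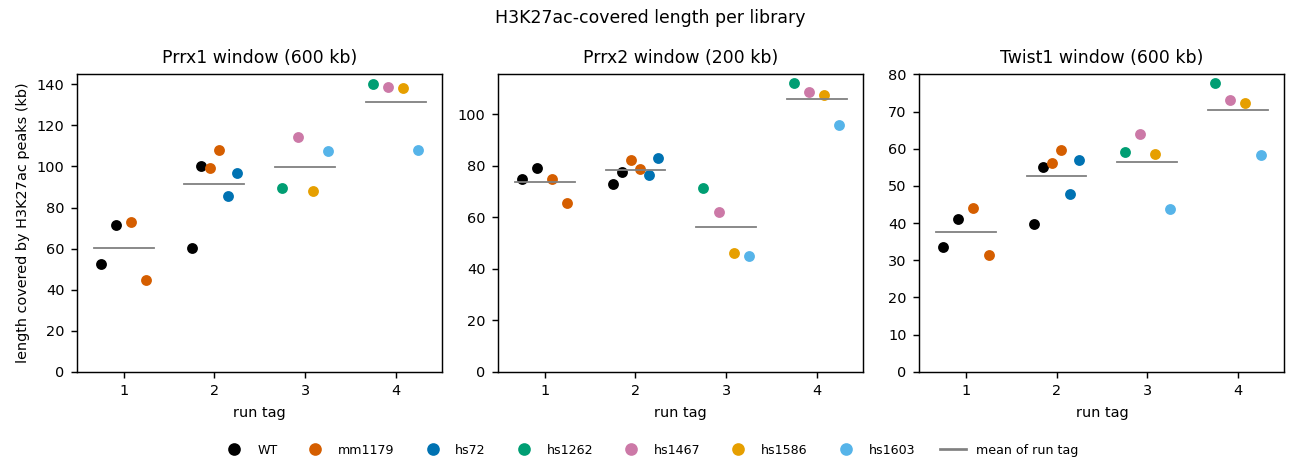
Length covered by H3K27ac peaks in kb (y axis) in each window against run tag (x axis), 1 point per library coloured by genotype, with a grey line at the mean of each run tag. Run tag 4 is highest on average in all 3 windows, and run tag 3 is lowest on average in the Prrx2 window, at 56.1 ± 12.9 kb (SD, n = 4).

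The number of peaks depends on how wide domains are split as well as on the length covered. The Prrx1 window held 22, 25, 22 and 36 peaks in WT replicates 1 to 4, and 28, 17, 31 and 30 in mm1179. The Prrx2 window held 26, 19, 22 and 17 peaks in WT and 20, 21, 18 and 19 in mm1179, and WT replicate 1, with the most peaks, had the narrowest widest peak there, at 7.61 kb. The Twist1 window held 11, 11, 13 and 20 peaks in WT and 14, 11, 18 and 17 in mm1179. In run tag 3 the Prrx2 window held 11, 12, 9 and 8 peaks in hs1262, hs1467, hs1586 and hs1603, below every other library. The whole lists of run tag 3 were short too, with 26550 to 32472 peaks. The other lists held 30719 to 37929 peaks in run tag 1, 37846 to 45267 in run tag 2 and 54375 to 58753 in run tag 4. How many windows of the genome separate in this way was not computed.

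Peaks in the windows were somewhat wider than the rest of the series at the median, 2493 bp against 2134 bp over all peaks. The median width of window peaks was 2096 bp in run tag 1, 2371 bp in run tag 2, 3293 bp in run tag 3 and 2475 bp in run tag 4. The whole lists followed the same order, with 1817, 1966, 2630 and 2250 bp. Peaks of run tag 3 were thus the widest at the median, in the windows and in the lists as a whole. By window, the median width over all libraries was 2283 bp for Prrx1, 2942 bp for Prrx2 and 2548 bp for Twist1.

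Score percentiles, averaged over the covered bases of a window, had the highest WT mean for Prrx2, at 81.0 ± 4.67, followed by Twist1 at 72.9 ± 3.73 and Prrx1 at 66.2 ± 3.38 (SD, n = 4). In WT they were 74.7, 81.7, 81.4 and 86.1 for Prrx2, 62.4, 65.5, 70.6 and 66.5 for Prrx1, and 74.8, 74.1, 75.3 and 67.3 for Twist1, in replicates 1 to 4, so in replicate 1 Twist1 and Prrx2 were level. Of windows of equal length, 94.1% had a lower WT percentile than Prrx2, 90.03% a lower one than Twist1 and 73.9% a lower one than Prrx1. In mm1179 replicates 1 to 4 they were 82.9, 77.2, 84.9 and 83.3 for Prrx2, 59.0, 67.6, 65.7 and 68.7 for Prrx1, and 75.2, 74.0, 62.2 and 73.6 for Twist1. WT and mm1179 overlapped in all 3 windows. The differences of mm1179 from WT were -1.0 for Prrx1 (p = 0.743), 1.1 for Prrx2 (p = 0.657) and -1.64 for Twist1 (p = 0.543), by exact two-sided permutation tests, each with an adjusted p of 1. The percentile could be tested in 3169 windows of 600 kb, of which 1.01% had an unadjusted p under 0.05 with a higher and 1.1% with a lower value in mm1179, and in 6993 windows of 200 kb, with 1.06% and 1.29%.

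In run tag 3 the Prrx2 window ranked lower than in any other library. Its percentiles were 69.4, 66.7, 64.1 and 71.3 for hs1262, hs1467, hs1586 and hs1603, against 74.7 to 86.1 in run tags 1 and 2. In hs1467 and hs1586 of run tag 3, Prrx2 was the lowest of the 3 windows. A complete separation of this kind was found in 8.54% of the 200 kb windows covered in all 18 libraries. In run tag 4 the same lines stood at 78.9, 80.9, 85.3 and 80.9, also above run tag 3, as in 18.3% of those windows. Neither the Prrx1 nor the Twist1 window separated run tag 3 from run tags 1 and 2, which 11.1% of the 600 kb windows did. In the Twist1 window run tag 4, with 64.7, 61.5, 65.6 and 66.6, lay below run tag 1, with 74.0 to 75.2, as 6.76% of 600 kb windows did. The Prrx2 window showed no such separation, which 5.47% of the 200 kb windows did. In the Prrx1 window run tag 3 had 60.5, 67.8, 71.0 and 70.3, and run tag 4 had 66.4, 63.3, 65.8 and 66.2. The hs72 replicates had 69.1 and 68.1 for Prrx1, 79.4 and 82.6 for Prrx2, and 69.5 and 71.8 for Twist1.

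To follow single elements, regions were defined as stretches where at least 2 of the 18 libraries had a peak, numbered along the chromosome within each window. A call meant that any peak of a library reached into the region, by 1 bp or more. There were 97 regions, 46 in the Prrx1 window, 19 in the Prrx2 window and 32 in the Twist1 window. All 18 libraries called 23 of the 97 (23.7%), against 16.5% of the 63594 regions of the genome. By window this was 11 of 46 for Prrx1, 5 of 19 for Prrx2 and 7 of 32 for Twist1. All 4 WT libraries called 39 of the 97, against 36.4% of regions in the genome, and all 4 mm1179 libraries called 35, against 34.6%.

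At the median, regions called everywhere were wider and ranked higher than those called rarely. Part of this order can follow from the definitions. Calls by more libraries can widen a region, and its percentile in a library was that of its highest peak there. Regions called in all 18 libraries went down to 2.23 kb and to a mean percentile of 46.6. The widest region of each window was not among them: Prrx1 region 25 was called in 15 libraries, Prrx2 region 12 in 16 and Twist1 region 13 in 17. No medians of the genome were set beside these. For the 23 regions shared by all 18 libraries, the median width was 4.29 kb and the median percentile 74.3. The 41 regions called in 5 to 17 libraries had medians of 2.64 kb and 38.3, and the 33 called in 4 or fewer had medians of 1.45 kb and 12.9. In the genome 24.5% of regions were called in 4 or fewer. Of the 33, 29 had a call in run tag 4, against 92.7% of such regions in the genome, and 10 of the 97 regions were called in run tag 4 alone, against 7.66%. Libraries of run tag 4 called 28 to 36 of the Prrx1 regions, 15 to 19 of the Prrx2 regions and 17 to 24 of the Twist1 regions, against 14 to 23, 12 to 16 and 11 to 13 in run tag 1. In run tag 2 the libraries called 20 to 31, 13 to 14 and 13 to 19, and in run tag 3 they called 21 to 29, 8 to 11 and 13 to 19. The run tag 4 lists were longer throughout the genome, and the share of all regions of the genome called by each library was not computed.

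The length covered in every one of the 18 libraries was 20.9 kb in the Prrx1 window, in 13 stretches, 17.6 kb in the Prrx2 window, in 9 stretches, and 10.8 kb in the Twist1 window, in 6 stretches. Some library covered 31.7% of the Prrx1 window, 61.7% of the Prrx2 window and 17.5% of the Twist1 window. The 10 libraries of run tags 1 and 2 shared 33.5 kb for Prrx1, 51.8 kb for Prrx2 and 24.4 kb for Twist1, and every base of these was also covered in all 4 run tag 4 libraries. Of these shared bases, 10.7 kb in the Prrx2 window, 1.35 kb in the Prrx1 window and 0 kb in the Twist1 window were covered in none of the 4 run tag 3 libraries. The same lengths over the whole genome were not computed, so these values do not set the windows apart from it.

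The widest Prrx1 stretch was region 25, chr1:165228423-165247213 in mm9, 18.8 kb long and called in 15 of 18 libraries. In run tags 1 and 2 it held the tied score of 3100 in every list, at a mean percentile of 99.1. Its covered length was 14.03, 11.7, 12.2 and 15.5 kb in WT replicates 1 to 4, and 14.7, 12.2, 15.96 and 16.9 kb in mm1179. The WT and mm1179 values overlapped, with means of 13.4 ± 1.74 kb and 14.9 ± 2.04 kb (SD, n = 4). It was 15.7 and 15.3 kb in hs72. In run tag 4 it covered 18.4, 18.7, 18.6 and 18.4 kb in hs1262, hs1467, hs1586 and hs1603, above every library of run tags 1 and 2. The run tag 4 lists also covered more of the genome as a whole. The share of regions in the genome with this separation was not computed. The added length lay toward the left edge, where some libraries of run tags 1 and 2 already had a separate, smaller peak. In WT replicate 1 this smaller peak ran from 165231227 to 165233274. The widest peak of the region began between 165228353 and 165230009 in run tag 4 and between 165232887 and 165235237 in run tags 1 and 2, while it ended between 165246503 and 165247366 in both. In run tag 3 hs1467 replicate 1 alone called the region, with 18.2 kb at the 71.5th percentile, and hs1262, hs1586 and hs1603 had no peak there.

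Another strong Prrx1 stretch, region 26 at chr1:165284001-165293640, lay 36.8 kb to the right, across the largest gap between regions of the window. All 18 libraries called it, at percentiles of 92.4 to 99.4. It covered 7.89, 8.72, 8.06 and 8.38 kb in WT and 8.90, 7.34, 8.87 and 9.38 kb in mm1179. In run tag 3, where 3 libraries lacked region 25, region 26 covered 9.15 ± 0.267 kb (SD, n = 4) with a mean percentile of 97.5. Of the other top-ranked Prrx1 regions, region 28 (chr1:165302566-165310441), region 35 (chr1:165352316-165356014) and region 36 (chr1:165369309-165376452) were each called in all 18 libraries, with mean WT percentiles of 79.8, 77.7 and 78.8. Region 35 stood at the 14.8th percentile in hs1262 replicate 1 and at the 92.0th in hs1586 replicate 1, both of run tag 3.

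Region 24, chr1:165209621-165224312, lay just left of region 25 and differed more between run tags in length than in calls. It was called in all 18 libraries. It covered 1.37, 5.21, 4.77 and 3.94 kb in the run tag 1 libraries (WT 1, WT 2, mm1179 1 and mm1179 2) and 11.9, 12.01, 12.6 and 13.2 kb in run tag 3. In run tag 2 it ranged from 4.93 to 12.4 kb and in run tag 4 from 11.1 to 14.7 kb. Its percentile was 3.54 to 52.3 in run tag 1, 67.3 to 78.7 in run tag 2, 74.3 to 91.3 in run tag 3 and 70.6 to 83.9 in run tag 4. In 3 of the 4 run tag 3 libraries, region 24 thus covered more than in any run tag 1 library while region 25, the next region to the right, had no peak. How many regions of the genome covered more in run tag 3 than in run tag 1 was not computed.

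The Prrx2 window held a nearly continuous block of 2 regions. Region 11, chr2:30681948-30696555, was called in all 18 libraries, at percentiles of 94.0 to 99.5, and covered 11.6 ± 0.558 kb in WT and 12.05 ± 0.445 kb in mm1179 (SD, n = 4). It covered 13.4 ± 1.03 kb in run tag 3 and 14.03 ± 0.615 kb in run tag 4. Region 12, chr2:30697413-30733622, followed it and was the widest region of the 3 windows, 36.2 kb. It covered 28.8, 31.3, 29.9 and 32.9 kb in WT replicates 1 to 4 and 30.5, 28.5, 34.0 and 32.0 kb in mm1179, so the groups overlapped. It covered 31.1 and 32.2 kb in hs72.

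Region 12 was cut into a different number of peaks by run tag. It was made of 3 to 7 peaks in run tag 1 and 4 to 5 in run tag 2. In run tag 4 it was a single peak of 36.0 kb in hs1262 and in hs1586 and 2 peaks in hs1467 and hs1603, covering 36.0, 35.9, 36.0 and 35.4 kb. In run tag 3 it covered 17.8 kb in hs1262 and 15.6 kb in hs1467, and hs1586 and hs1603 had no peak in it. Both run tag 3 libraries that called it ranked it high, at the 95.2nd and 99.0th percentile. In run tag 4 its percentiles were 81.3, 96.9, 99.99 and 89.5 in hs1262, hs1467, hs1586 and hs1603. Region 11, right beside it, was 1 peak in each library of run tags 3 and 4.

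Region 3 of the Prrx2 window, chr2:30608113-30617291, was called in all 18 libraries. It was 2 peaks in each library of run tags 1 and 2 and 1 peak in each library of run tag 3. In run tag 4 it was 1 peak in each library but hs1603 replicate 2, which had 2. It covered 6.61 ± 0.750 kb in WT and 7.17 ± 1.08 kb in mm1179 (SD, n = 4). In run tag 3 it covered 9.05 ± 0.0668 kb and in run tag 4 a similar 9.03 ± 0.160 kb. Its percentile was 96.5 to 99.2 in run tags 1 and 2, 77.1 to 93.0 in run tag 3 and 96.5 to 96.9 in run tag 4. Region 1, chr2:30597617-30601191, which crosses the left edge of the window, was called in all 18 libraries. It ranked at 93.8 to 99.9 in run tags 1 and 2 and at 30.1 to 89.4 in run tag 3. How many regions of the genome ranked lower in run tag 3, as regions 1 and 3 did, was not computed. Region 6, chr2:30637791-30643947, ranked at a mean of 86.2 in run tags 1 and 2 and of 31.9 in the 3 run tag 3 libraries that called it.

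The Twist1 window had 1 dominant domain. Region 13, chr12:34639487-34656034, was called in 17 of 18 libraries and was a single peak in each of them. It covered 14.3, 14.4, 13.7 and 14.2 kb in WT replicates 1 to 4 and 14.8, 13.96, 14.3 and 14.9 kb in mm1179, means of 14.1 ± 0.331 kb and 14.5 ± 0.440 kb (SD, n = 4). The groups overlapped, and the spread was small beside that of the whole window. It covered 14.5 and 14.9 kb in hs72, and 16.5, 15.8, 15.9 and 16.1 kb in hs1262, hs1467, hs1586 and hs1603 of run tag 4. In run tag 3 it covered 15.9, 15.3 and 16.3 kb in hs1262, hs1467 and hs1586, at percentiles of 48.7, 98.1 and 88.4. The missing call was hs1603 replicate 1, whose widest peak in the window was 6.17 kb.

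The right end of the Twist1 window held the other strong regions. Region 31, chr12:34882977-34889636, was called in all 18 libraries and covered 3.80, 5.32, 4.96 and 5.97 kb in WT and 5.63, 5.06, 6.12 and 6.66 kb in mm1179. It covered 6.09 ± 0.103 kb in run tag 3 (SD, n = 4), where its percentile was 95.1 to 99.2, so hs1603 replicate 1, which lacked region 13, called region 31 at full length. Region 32, chr12:34898287-34908000, crosses the right edge of the window and was also called in all 18 libraries, at a mean percentile of 89.2 in WT and 97.9 in run tag 3. Region 28, chr12:34853704-34856955, and region 23, chr12:34816602-34820589, were called in all 18 libraries at mean WT percentiles of 86.6 and 73.4.

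**Figure D3:**
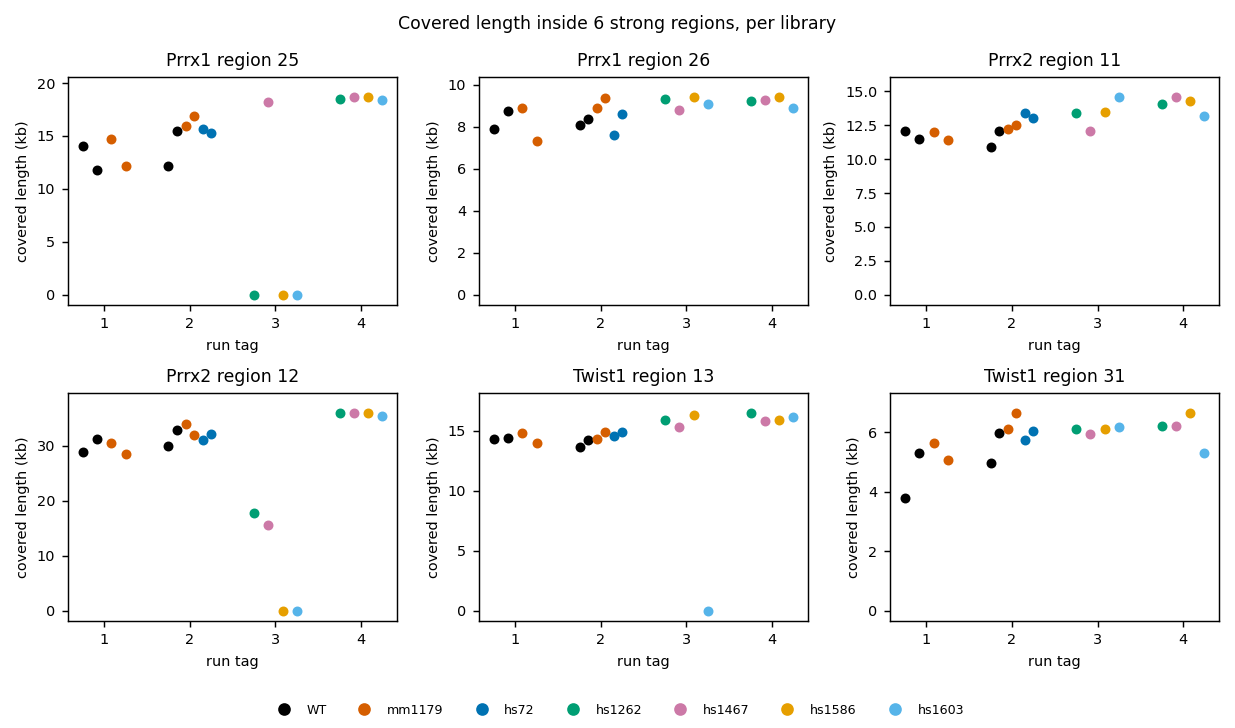
Length in kb covered inside 6 highly ranked regions (y axis, from 0) against run tag (x axis), 1 point per library coloured by genotype, where 0 means no call. Prrx1 region 25, Prrx2 region 12 and Twist1 region 13 have points at 0 in run tag 3 alone, while Prrx1 region 26, Prrx2 region 11 and Twist1 region 31 have none at 0.

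Outside run tag 3, 32 of the 97 regions were called in every one of the 14 libraries. Of these, 9 were missed by at least 1 run tag 3 library (28.1%), against 44.8% of the 19031 such regions in the genome, and 3 were missed by all 4 (9.38%), against 23.5%. At least 2 of these libraries missed 5 regions, against 36.2% in the genome, and at least 3 missed 4 regions, against 30.2%. Misses in the 3 windows were therefore not more common than in the genome. The Prrx2 window had 6 of its 11 such regions missed at least once, the Prrx1 window 2 of 13 and the Twist1 window 1 of 8. Missed by all 4 were Prrx1 region 33 (chr1:165332620-165334973), Prrx2 region 4 (chr2:30626255-30629857) and Prrx2 region 8 (chr2:30662021-30664945). In run tags 1 and 2 these had mean percentiles of 65.3, 60.4 and 57.5, and in run tag 4 they stood between the 75.7th and the 82.8th.

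The misses touched top-ranked regions too. Across the genome, 39.5% of regions at or above the 97th percentile in run tags 1 and 2 were missed by at least 1 run tag 3 library, but 4.51% were missed by all 4. Prrx1 region 25, missed by 3, Prrx2 region 12, missed by 2, and Twist1 region 13, missed by 1, belong to that top class. Prrx2 regions 3 and 11 belong to it as well, and every run tag 3 library called them. Prrx2 regions 6, 7 and 9 were missed by 1 run tag 3 library each, hs1586 replicate 1 for region 6 and hs1603 replicate 1 for regions 7 and 9.

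**Figure D4:**
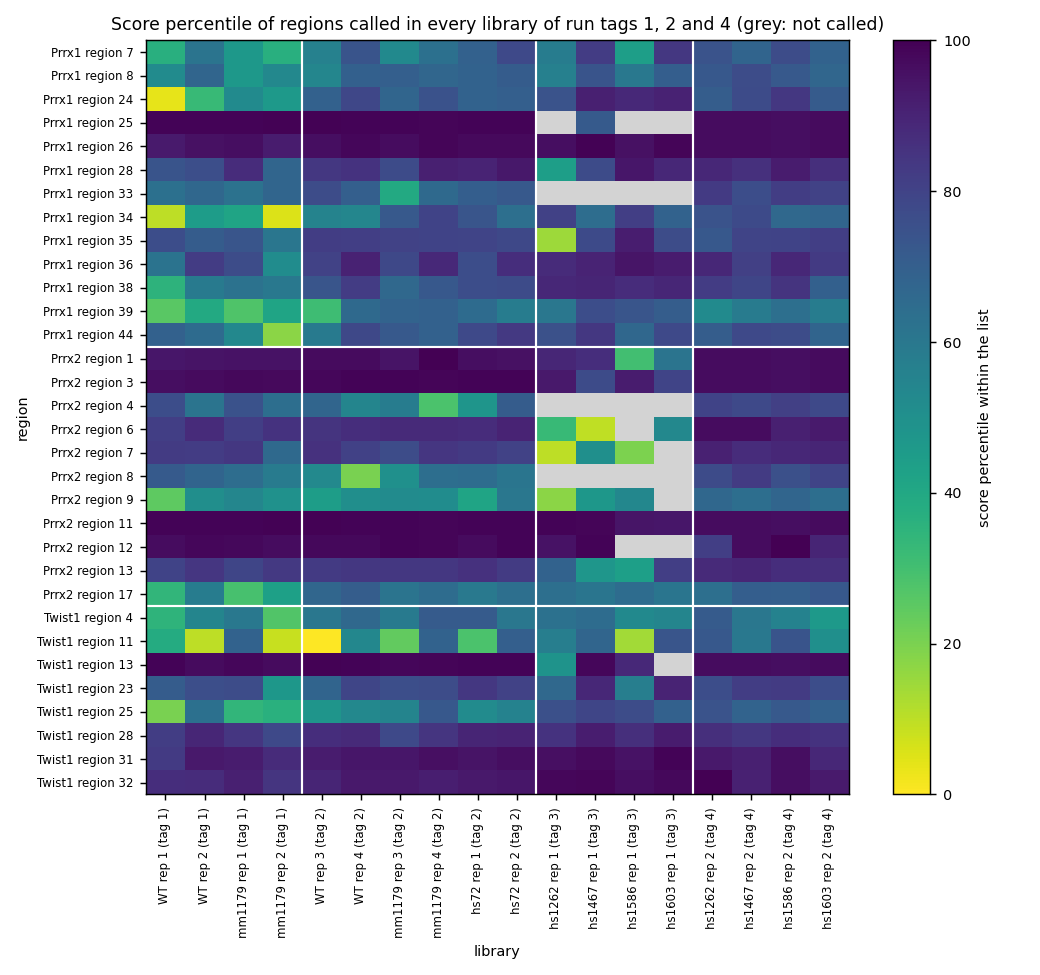
Score percentile (colour, 0 to 100) of the 32 regions called in every library of run tags 1, 2 and 4 (rows, grouped by window) in each of the 18 libraries (columns, grouped by run tag), with grey for no call. Grey cells occur in the run tag 3 columns alone, by construction of the rows, and 3 rows are grey in all 4 of these columns.

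Calls of single regions did not separate mm1179 from WT. Of the 97 regions, 66 had as many calls in mm1179 as in WT, those called in neither included, 18 had more in WT and 13 had more in mm1179. Over all regions of the genome the shares were 57.2%, 23.3% and 19.5%, also with more regions on the WT side. In Fisher's exact test, with p adjusted by Benjamini-Hochberg over 54583 regions of the genome, 0 of the 75 regions called in at least 1 of these libraries passed, and 0 had an unadjusted p under 0.05. In the genome 0% passed, and 0.0769% and 0.0348% had an unadjusted p under 0.05 with the calls in WT and in mm1179. With 4 libraries against 4 the smallest exact p is 0.0286. That is too large to pass an adjustment over so many regions, so the 0 that passed decides nothing. The regions that differed most were short and low in rank. Prrx1 region 40 (chr1:165434419-165436563) was called by 4 WT and 1 mm1179 libraries, and Twist1 region 18 (chr12:34730289-34731857) by 3 and 0. Twist1 region 12 (chr12:34622581-34626345) was called by 1 WT and 4 mm1179 libraries. Each of these had an exact p of 0.143 in Fisher's test and an adjusted p of 1. Prrx1 region 45 and Prrx2 region 5 were called by 2 WT libraries and by 0 mm1179 libraries (exact p = 0.429), and Twist1 region 24 by 1 and 3 (exact p = 0.486). Across all 18 libraries, Twist1 region 12 was called in 14 and Twist1 region 18 in 7.

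The other 5 lines had few calls of their own in the windows. For hs72, 2 of 72 regions (2.78%) were called in both hs72 libraries and neither run tag 2 WT library or the reverse, against 4.71% in the genome. They were Prrx1 region 10, called in hs72, and Prrx1 region 45, called in the WT libraries. For hs1262, hs1467, hs1586 and hs1603, 0 of 95 regions were called in both libraries of a line and in none of the other 3 lines, or the reverse. In the genome the shares were 0.0637% gained and 0.043% lost for hs1262, 0.205% and 0.0398% for hs1467, 0.0478% and 0.0589% for hs1586, and 0.0525% and 0.0669% for hs1603. With shares this low, 0 of 95 regions does not set the windows apart from the genome.

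The stretches of the genome whose share of covered bases varied most like these windows over the 18 libraries were named as a description, since all share the same libraries and run tags. For Prrx1 the closest 600 kb window was chr2:109800001-110400000 (Pearson r = 0.922 over 18 libraries), followed by chr10:26400001-27000000 (r = 0.883) and chr2:80400001-81000000 (r = 0.876). For Prrx2 the closest 200 kb windows were chr13:67000001-67200000 (r = 0.948), chr11:68800001-69000000 (r = 0.944) and chr5:31400001-31600000 (r = 0.944). For Twist1 they were chrX:141600001-142200000 (r = 0.925), chrX:49800001-50400000 (r = 0.865) and chr1:44400001-45000000 (r = 0.855). Prrx1 and Twist1 were not among the closest windows of each other, and Prrx2, of another length, was not compared with them.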

How the data were processed

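H3K27ac ChIP-seq peak lists of 18 libraries were used, and the 18 input samples were not used here. Per the submitters' processing notes, the build was mm9 and the tools were MACS 1.4.2, Bowtie 0.12.8, cutadapt 1.1, bcl2fastq 2.17 and CASAVA. Whether the inputs served as controls is not given in the sources used here. The deposited lists hold peak positions and, for each peak, the authors' score, without read counts. Lists were called per library, and no 2 were identical. Scores were ranked within a list (ties at their mean rank). Run tags come from the names of the lists.

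The members and the lists were chosen with earlier results of these data known. Covered length and percentile were compared between mm1179 and WT by an exact permutation test, two-sided, over all 70 arrangements, adjusted by Benjamini-Hochberg over all windows of equal length with peaks in at least 2 libraries, and region calls by Fisher's exact test. The other 5 lines, with 2 libraries each, were not tested. The procedure was tested on simulated data. Named regions were the up to 5 highest in WT of those called in all 4 WT libraries, the widest, and up to 3 whose calls differed by at least 2 libraries between WT and mm1179. Prrx1 regions 24 and 33, Prrx2 regions 4, 7, 8 and 9 and Prrx1 region 10 were named after their values were seen. Alternatives were a minimum score of 100, equal lists of the 26550 highest peaks, scaling, whole peaks, an unweighted mean, 50% of a region for a call, regions of 1 library, blocks and leaving out libraries or run tags. For the regions called in all 18 libraries, alternatives were chosen after seeing the data. Planned marker gene lists needed an mm9 annotation and were not analysed here. The software was matplotlib 3.10.9, scipy 1.17.1, numpy 2.4.6 and Python 3.11.15. Positions count from 1.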

Additional observations from a re-analysis of the deposited data

Results flagged for a closer look

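In 7 of 72 groups of 4 to 6 libraries, 1 library stood apart from the rest of its group by a gap that chance gives in about 1 in 20 groups. In the Prrx1 window of run tag 4, hs1603 replicate 2 had 107.9 kb covered against 138.2 to 140.2 kb in the other 3 libraries, and its widest peak, 17.01 kb, was below their 18.4 to 18.7 kb. In the Prrx1 window of run tag 3, the widest peak of hs1467 replicate 1 was 18.2 kb against 9.09 to 9.94 kb in the other 3, since it alone called region 25. In the Twist1 window of run tag 3, the widest peak of hs1603 replicate 1 was 6.17 kb against 15.4 to 16.3 kb in the other 3, since it alone did not call region 13. The Twist1 score percentile was 67.3 in WT replicate 4 against 74.1 to 75.3 in the other WT libraries, and 62.2 in mm1179 replicate 3 against 73.6 to 75.2 in the other mm1179 libraries. In run tag 1, mm1179 replicate 1 had 14 Twist1 peaks and the other 3 libraries had 11 each.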

How the results depend on the processing

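Of 132 alternative values, 81 were tested differences. Of these, 72 kept their direction, some with a size far from the reported one, 9 reversed, and 0 had p under 0.05 (exact p from 0.143 to 1). Of the untested lengths and counts, 23 moved. The mm1179 minus WT difference in Prrx2 covered length, -0.647 kb, became 2.08 kb with a minimum score of 100, 1.03 kb with equal lists, 0.373 kb without WT replicate 2 and 2.60 kb without mm1179 replicate 2. The Prrx1 percentile difference, -1.0, became 0.445 without WT replicate 3 and 1.08 without mm1179 replicate 1. The Prrx2 percentile difference, 1.1, became -1.05 with a minimum score of 100 and -0.974 without WT replicate 1. The Twist1 percentile difference, -1.64, became 1.37 without mm1179 replicate 3. Leaving out 1 library gave 1.12 to 22.2 kb for Prrx1 covered length, -2.93 to 2.60 kb for Prrx2 and 1.59 to 11.03 kb for Twist1, with mm1179 replicates 4 and 2 giving the Prrx1 and Twist1 extremes. For the percentiles it gave -2.28 to 1.08 for Prrx1, -0.974 to 2.80 for Prrx2 and -3.49 to 1.37 for Twist1. The count of regions called in all libraries of 1 group and none of the other, 0, became 0 to 1: Twist1 region 18 without WT replicate 2, Twist1 region 12 without WT replicate 4 and Prrx1 region 40 without mm1179 replicate 3. The length covered in all libraries of Prrx1, Prrx2 and Twist1 became 9.62, 11.9 and 8.29 kb with a minimum score of 100, 17.7, 16.4 and 8.29 kb with equal lists, 36.8, 21.4 and 18.6 kb without run tag 1, 21.5, 18.5 and 10.8 kb without run tag 2, and 33.5, 51.8 and 24.4 kb without run tag 3. The regions called in all libraries became 3, 2 and 4 with a minimum score of 100, and 11 for Prrx2 without run tag 3 and 4 for Twist1 with equal lists. The cause of these changes was not tested. With the replicate block the differences had the same size and exact p of 0.5, 0.875 and 0.375 for covered length of Prrx1, Prrx2 and Twist1, and from 0.375 to 0.875 over all 6 differences, where the smallest possible is 0.125. Libraries of the same number correlated at 0.0761 to 0.554 in their deviations and libraries of the other number in the same run tag at 0.0798 to 0.486, and 2 of 4 WT libraries correlated best with their own number, so the numbers were not taken to pair the libraries. Depth is unknown and limits every missing call.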
